A study of Mus musculus with 9 samples.

Results

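The genes described are the numbered zinc finger protein genes of the mouse, those whose symbol is Zfp followed only by digits. Of 46095 gene symbols in the count table, 346 have such a name, with Zfp36 left out by the rule. The 217 members are those with a summed count of at least 1000 over the 9 libraries. Counts therefore chose the members, and their overall level is a description only. Zfp691, Zfp442 and Zfp7, with 1046, 1051 and 1083 counts, lay just inside the limit, and Zfp759, Zfp850 and Zfp775, with 977, 963 and 921 counts, just outside it.

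The cells were mouse macrophages raised in a dish out of bone marrow precursors. All groups came from wild-type Balb/c mice, with an age of 6 weeks in the labels. There were 3 control libraries, 3 with LPS and 3 with LPS plus BHB. Neither abbreviation is written out in the labels, and doses and times are absent from them. In this field LPS is lipopolysaccharide, an outer membrane component of bacteria that activates macrophages, and BHB is beta-hydroxybutyrate, a ketone body. No group received BHB alone, and the labels do not say where the replicates came from. The p-values therefore reflect no more than the spread among these libraries, which may be technical.

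Most zinc finger proteins of this kind carry C2H2 fingers, small folds held together by a zinc ion, which are strung in tandem and read DNA bases. Many also carry a KRAB box, a short domain that binds the scaffold protein Trim28 (KAP1) and through it recruits histone methylation and heterochromatin proteins, best known for silencing retroelements. Members without a KRAB box include transcription factors, corepressor subunits, RNA-binding proteins and ubiquitin ligases.

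Library totals lay between 29633411 and 32798920 counts, and the members took between 0.591% and 0.634% of them. The 8 macrophage markers examined were all tested. The 7 lymphocyte markers had 31 counts in all libraries together and the 5 mast cell and basophil markers had 4, with Mcpt4, Tpsb2 and Fcer1a at 0. CPM below are counts normalised to library size with TMM factors. The macrophage markers went different ways. With LPS 6 of 8 fell, among them Lyz2 (14575 to 5061 CPM) and Csf1r (2509 to 629 CPM), while Cd14 and Adgre1 rose by 1.64 and 0.61 on the log2 scale. With LPS plus BHB against LPS 5 rose, Cd14 from 1651 to 5765 CPM, and 1 fell. Their sum, 20719 CPM in control, 9904 in the LPS group and 15220 in the group with both agents, was carried mostly by Lyz2 and Cd14. The summed levels of other lists also differed between groups. These sums cover tested markers only. For dendritic cells, 2 of 6 markers were tested and summed to 1.65, 22.6 and 16.7 CPM in the same order, mostly Zbtb46. Clec9a, Flt3, Siglech and Xcr1 were too low to test. The 6 tested of 7 stromal markers summed to 8.95, 104 and 145 CPM, in the treated groups mostly Pdgfrb (log2 fold change with LPS 4.79). Col1a1, Col1a2, Col3a1, Dcn and Pdgfra were tested and not called. The 4 tested of 9 neutrophil markers summed to 5.48, 2.71 and 6.07 CPM. The 2 tested of 6 erythroid and megakaryocyte markers summed to 1.18, 0.589 and 1.81 CPM. The part of cell composition in the results was not tested. In bulk RNA, fewer cells of a type and less RNA per cell cannot be told apart. The control libraries were not alike in genes that LPS raised: control replicates 1, 2 and 3 held 24, 1739 and 1808 counts of Acod1, which makes itaconate, and 0, 67 and 55 counts of Nos2, the inducible nitric oxide synthase. The LPS libraries held between 156090 and 172641 counts of Acod1. Comparisons with control are therefore also given without control replicates 2 and 3.

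Translated coding sequences of the GENCODE annotation of the build GRCm38 were available for 216 members, all but Zfp607. The C2H2 pattern was found in 211 of them, with a median of 10 copies and up to 37. The 5 without a match to the pattern were Zfp330, Zfp503, Zfp703, Zfp839 and Zfp935. A KRAB box was called in 109 members by likeness to a profile of 41 residues (at least 20 identities), in 102 no box was found, and 5 members with 13 to 19 identities were set apart. Of 21924 protein-coding genes, 330 (1.51%) carried the box by the same measure. The members were unevenly placed, with 53 on chromosome 7, 25 on chromosome 17, 17 on chromosome 8 and 15 on chromosome 13, and 96 lay within 100 kb of another member.

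RefSeq promoter windows of the build GRCm38.p6 matched 180 members. Only the 250 bases before the start were used, for the CpG counts and the motifs alike. Their median number of CpG was 12, against 6 over all 27025 windows, with 9 in members with a KRAB box and 14 in those without. A match to the NF-kB motif, searched on both strands, stood in 8 members (4.44%) and in 5.72% of all windows. The other motifs searched on both strands were TGACGTCA, a cyclic AMP response element, found in 2.78% of members and 1.6% of all windows, CACGTG, an E-box, in 6.67% and 6.04%, and TGANTCA, an AP-1 element, in 3.89% and 6.85%. No match of one of these motifs can lie wholly within a match of another, and a match is a description, not a binding site. The 250 bases upstream of 4 members, chosen after their values were seen, are shown because 2 members of opposite response to LPS hold the NF-kB motif and 2 others of opposite response do not. Capitals mark the matches. They lie in the windows chr13:119790733-119790982 (Zfp131, minus strand), chr7:80024564-80024813 (Zfp710, plus strand), chr17:22867135-22867384 (Zfp945, minus strand) and chr2:170142676-170142925 (Zfp217, minus strand).
Zfp131: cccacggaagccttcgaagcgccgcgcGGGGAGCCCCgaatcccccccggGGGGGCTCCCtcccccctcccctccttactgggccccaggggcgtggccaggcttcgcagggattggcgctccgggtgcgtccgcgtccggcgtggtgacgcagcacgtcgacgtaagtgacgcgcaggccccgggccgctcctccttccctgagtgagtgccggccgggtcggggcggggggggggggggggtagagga
Zfp710: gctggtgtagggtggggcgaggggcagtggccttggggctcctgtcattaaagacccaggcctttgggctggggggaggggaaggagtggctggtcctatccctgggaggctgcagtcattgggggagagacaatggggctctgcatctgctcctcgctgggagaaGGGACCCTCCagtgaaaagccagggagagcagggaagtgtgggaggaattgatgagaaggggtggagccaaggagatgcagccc
Zfp945: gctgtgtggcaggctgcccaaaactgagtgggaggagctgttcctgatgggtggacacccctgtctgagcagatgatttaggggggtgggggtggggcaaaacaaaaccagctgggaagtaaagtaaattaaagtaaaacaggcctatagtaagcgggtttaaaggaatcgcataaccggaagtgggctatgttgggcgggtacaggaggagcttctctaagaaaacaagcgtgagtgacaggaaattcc
Zfp217: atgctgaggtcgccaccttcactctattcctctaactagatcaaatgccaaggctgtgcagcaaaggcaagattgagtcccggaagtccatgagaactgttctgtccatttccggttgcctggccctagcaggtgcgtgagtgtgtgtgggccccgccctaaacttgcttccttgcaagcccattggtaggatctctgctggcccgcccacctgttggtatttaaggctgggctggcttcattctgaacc
The matches of Zfp131 lie 223 to 214 and 200 to 191 bases before the start used. That of Zfp710 lies 84 to 75 bases before its start. In GENCODE the Zfp217 window lies within its gene (chr2:170108643-170148103), and the Zfp131 window partly within its own (chr13:119765187-119790889). The presence or absence of a match thus holds for the start used only. As given below, Zfp131 and Zfp945 rose with LPS, and Zfp710 and Zfp217 fell.

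LPS was first set against control, to see how these genes responded to it. The changes were large for single members and went both ways. Zfp945, Zfp811 and Zfp9 rose over 10-fold, while Zfp395, Zfp608 and Zfp710 fell over 10-fold. Of the 217 members, all of which were tested, 91 rose (41.9%) and 86 fell (39.6%) at an adjusted p under 0.05 (edgeR quasi-likelihood test, p adjusted over all genes). Over all 14026 genes tested, 79.8% were called, 38.4% higher and 41.4% lower, and among the 9921 with a summed count of at least 1000 these were 46.1% and 41%. The members' counts were thus near the background. Their median log2 fold change was 0.09, against -0.06 over all genes. A change of at least 2-fold was called upward in 26 members (12%) and downward in 37 (17.1%), against 18.7% and 26.3% of all genes and 19.4% and 21.2% of those with at least 1000 counts. The 3 libraries of LPS lay wholly above or below the 3 of control in 181 members (83.4%), against 82.7% of all genes.

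**Figure D1:**
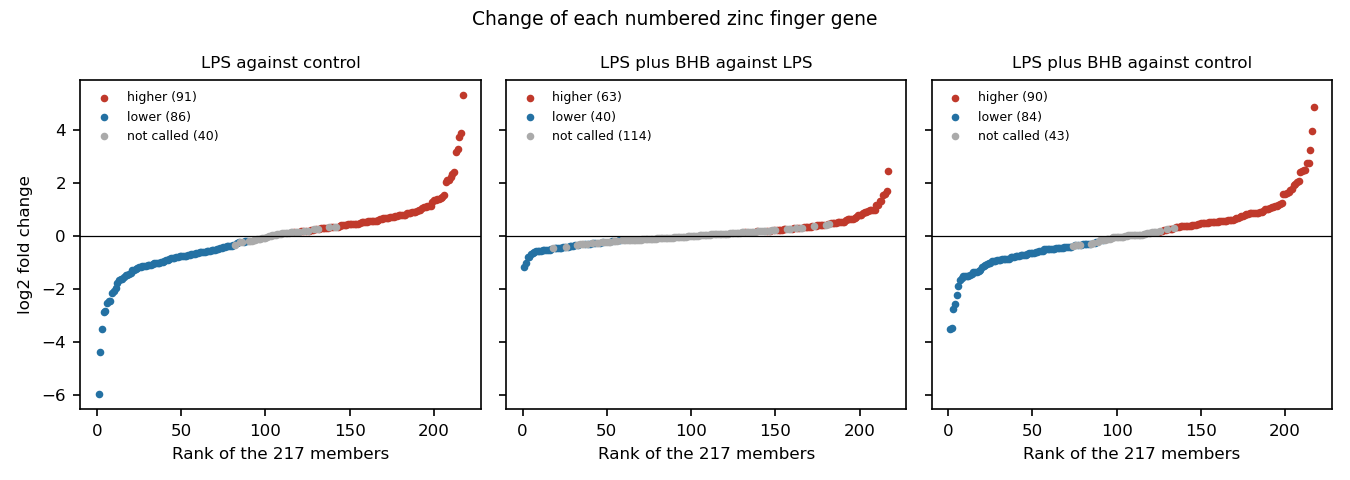
Log2 fold change of each of the 217 members (vertical axis), ranked within each comparison (horizontal axis), with red for higher, blue for lower and grey for not called at an adjusted p under 0.05. The changes span -5.95 to 5.32 for LPS against control and -1.15 to 2.45 for LPS plus BHB against LPS.

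Scaling by library totals alone, without TMM, moved the median of all genes from -0.06 to -0.34 in this comparison, and the members' split from 91 higher and 86 lower to 66 and 109. Directions below are relative to the TMM scaling, under which the TMM factors were 1.14 to 1.15 in control and 0.945 to 0.955 with LPS. Without control replicates 2 and 3, 80 members were higher and 74 lower, and 153 of the 177 calls were kept. Control is then 1 library, assumed to vary like the treated libraries, which alone give the spread, and this holds for every count below without those replicates.

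Zfp811 had 6, 28 and 2 counts in control of 2044 in all, so it met the limit of 1000 counts only through the groups where it is high, and its change is a description. This KRAB member was at 0.169, 0.75 and 0.0552 CPM in the control libraries, 14.1, 12.6 and 13.2 CPM with LPS, and 11.3, 10.3 and 7.62 CPM with LPS plus BHB. Its groups with LPS lay far above all control libraries and overlapped nowhere with them. The fitted log2 fold change for LPS against control was 5.32 (SE 0.42). It was 6.27 without control replicates 2 and 3, and 6.85 without control replicate 2 alone, the library with the highest control value. Other members with large changes, among them Zfp9, Zfp827, Zfp420, Zfp395 and Zfp608, also drew most of their counts from the groups where they are high. Their changes are likewise descriptions.

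Zfp945, which carries 18 finger motifs and a KRAB box (chr17:22846697-22867134, GRCm38, minus strand), was at 9.74, 10.8 and 11.5 CPM in control, 158, 150 and 170 CPM with LPS and 71.6, 77.4 and 66.3 CPM with LPS plus BHB. No library of one group overlapped another group, and the LPS plus BHB libraries lay between the other two groups. The log2 fold change with LPS was 3.89 (SE 0.07, adjusted p = 3.87e-20). Zfp9, also with a KRAB box, stood at 2.39, 1.42 and 1.43 CPM in control, 24.3, 24.6 and 20.8 CPM with LPS and 26.5, 28 and 26.6 CPM with LPS plus BHB. Both treated groups lay above control without overlap, and the log2 fold change with LPS was 3.73 (SE 0.14).

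Zfp827, a protein of telomere chromatin that recruits the NuRD complex, was at 2, 1.61 and 2.26 CPM in control, 19.7, 19.4 and 17.3 CPM with LPS and 19.9, 19.7 and 16 CPM with LPS plus BHB. Its treated groups overlapped each other and lay above control (log2 fold change with LPS 3.27, SE 0.14). Zfp420 rose by 3.17 on the log2 scale (SE 0.14), from 2.16 ± 0.516 to 19.5 ± 1.92 CPM (SD, n = 3).

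Zfp598 encodes a ubiquitin ligase that senses collided ribosomes. It was at 47.8, 50.9 and 48.4 CPM in control, 261, 263 and 259 CPM with LPS and 275, 272 and 269 CPM with LPS plus BHB. The treated libraries lay above every control library, and replicates differed little (log2 fold change with LPS 2.41, SE 0.04, adjusted p = 5.46e-21).

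The deepest fall was that of Zfp395, a factor of the family that binds the enhancer of the glucose transporter gene Glut4 and the promoter of the Huntington's disease gene (chr14:65358389-65398930, plus strand). It was at 85.9, 80.7 and 81.5 CPM in control, 1.32, 1.01 and 1.66 CPM with LPS and 6.31, 7.05 and 8.54 CPM with LPS plus BHB. The groups did not overlap, and the LPS plus BHB libraries lay above LPS but far below control. The log2 fold change with LPS, a description as said above, was -5.95 (SE 0.12), and -6.00 without control replicates 2 and 3. Its paralog Zfp704 was at 99.7, 94 and 91 CPM in control, 16.9, 17.6 and 18.3 CPM with LPS and 17.4, 22.9 and 21.6 CPM with LPS plus BHB. The treated groups overlapped each other and lay below control (log2 fold change with LPS -2.43, SE 0.08).

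Zfp608 was at 25.6, 24.1 and 23.1 CPM in control, 1.15, 1.29 and 1.1 CPM with LPS and 1.93, 2.54 and 2.22 CPM with LPS plus BHB, with no overlap between groups, and its log2 fold change with LPS was -4.36 (SE 0.14). Its paralog Zfp609, which works with the cohesin loader Nipbl, moved the other way. It was at 30.5, 30.3 and 33.8 CPM in control, 51.4, 52.2 and 44.8 CPM with LPS and 119, 125 and 128 CPM with LPS plus BHB. All 3 groups of Zfp609 were apart, in rising order (log2 fold change with LPS 0.65, SE 0.06).

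Zfp710 was at 274, 252 and 261 CPM in control, 23.2, 22.2 and 24.7 CPM with LPS and 43.3, 42.2 and 47.1 CPM with LPS plus BHB. Its groups did not overlap (log2 fold change with LPS -3.49, SE 0.06, adjusted p = 1.62e-21). Zfp467, which governs the choice between fat and bone cells in marrow stroma, fell from 30.6 ± 0.442 to 4.17 ± 0.933 CPM (log2 fold change -2.87, SE 0.14). Zfp90 fell from 38.2 ± 0.641 to 5.35 ± 1.1 CPM (-2.84, SE 0.11), but 73.1% of its exon bases overlap the antisense gene Gm26786, and with the strand setting of the counting not given its reads cannot be told apart from that gene's. Zfp217, a subunit of the CoREST corepressor complex, was at 101, 96.3 and 95.9 CPM in control, 16.7, 18.2 and 16.7 CPM with LPS and 52.6, 51.3 and 65.8 CPM with LPS plus BHB. Its groups were apart, with LPS plus BHB between the others (log2 fold change with LPS -2.50, SE 0.08).

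**Figure D2:**
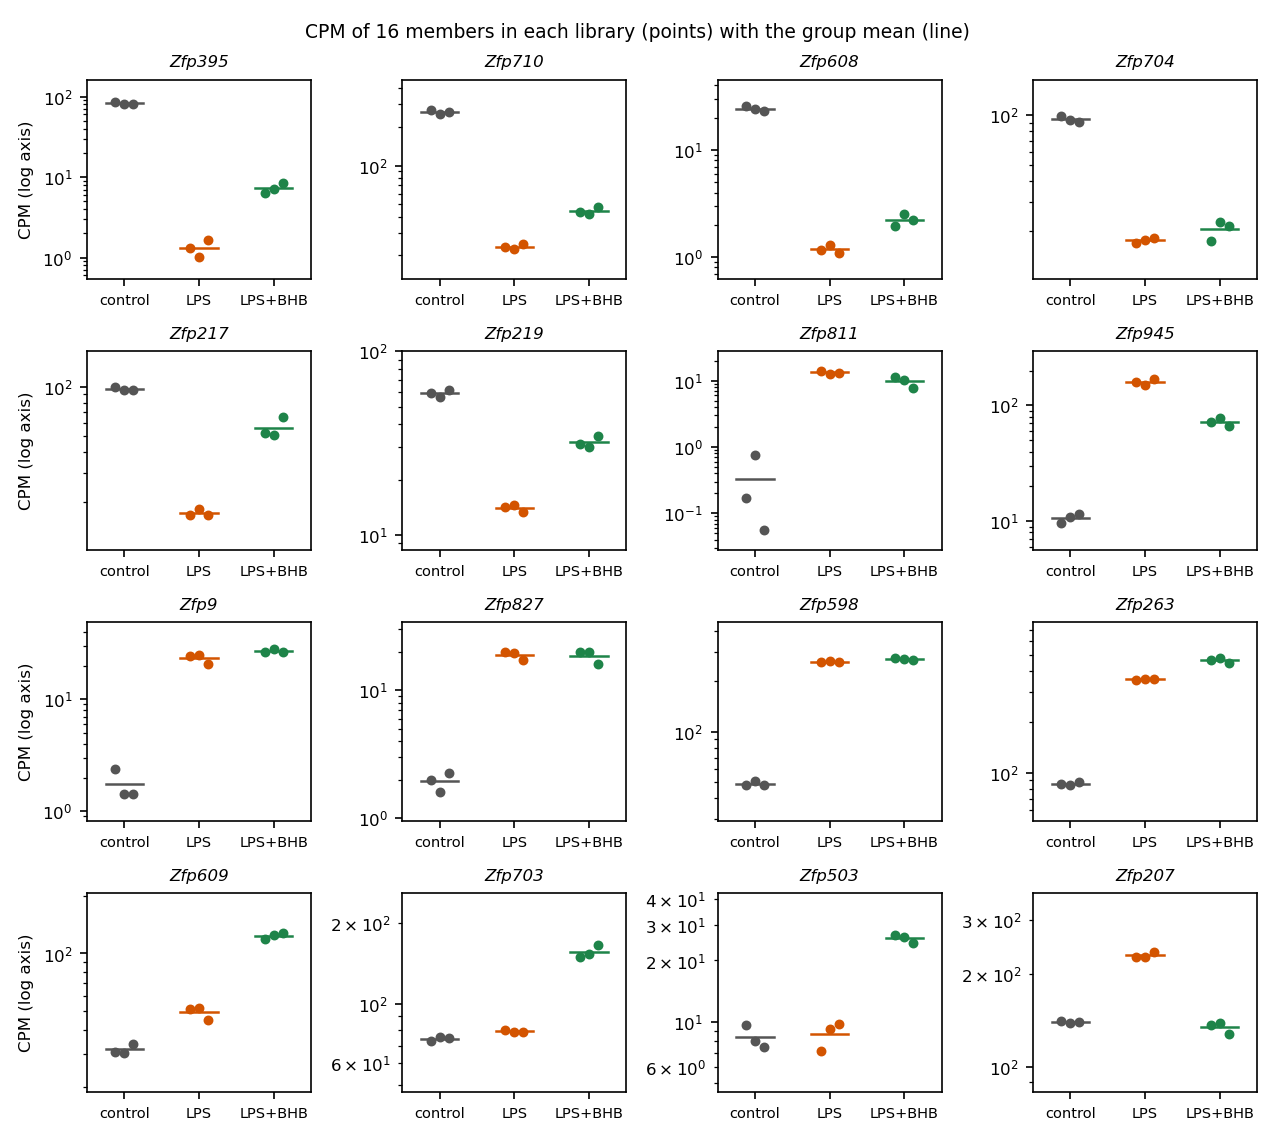
CPM on a log axis (vertical) for 16 members in each of the 9 libraries (points) by group (horizontal), with the group mean as a line. Zfp395, Zfp710, Zfp608, Zfp704, Zfp217 and Zfp219 are low with LPS, Zfp811, Zfp945, Zfp9, Zfp827, Zfp598 and Zfp263 are high with LPS, and Zfp609, Zfp703 and Zfp503 are highest with LPS plus BHB.

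Members were also grouped by role. The lists of roles were put together by hand, with earlier results known, and no list was tested. The counts stand beside the 46.1% higher and 41% lower with LPS among all genes with at least 1000 counts (38.4% and 41.4% of all genes). Of 8 members that act on RNA or translation, 7 rose with LPS and 1 fell (5 and 1 under library totals). Besides Zfp598, Zfp622, which matures the large ribosomal subunit, was at 47.8, 45.3 and 43.3 CPM in control and 99.6, 101 and 97.2 CPM with LPS, with no overlap (log2 fold change 1.13, SE 0.06). Zfp346, which binds double-stranded RNA, rose by 0.70 (SE 0.08) and Zfp638, which takes part in silencing of unintegrated retroviral DNA, by 0.42 (SE 0.05). Zfp106, an RNA-binding protein needed by motor neurons, was at 237 ± 5.66 CPM in control and 272 ± 10.6 CPM with LPS. Its log2 fold change of 0.20 turned to -0.08 under library totals, and 28.8% of its exon bases overlap the antisense gene Gm26899. Zfp593 rose by 0.81 (SE 0.12), with 64.2% of its exon bases overlapping other genes. The member that fell was Zfp706 (-0.84, SE 0.09).

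The 4 members of ubiquitin, SUMO and cell cycle pathways rose with LPS, or 3 with 1 lower under library totals. Zfp207 (BuGZ), a spindle assembly factor, was at 141, 140 and 140 CPM in control, 226, 227 and 236 CPM with LPS and 137, 139 and 128 CPM with LPS plus BHB. The LPS libraries of Zfp207 lay far above the others, and those with LPS plus BHB lay just below control, without overlap (log2 fold change with LPS 0.71, SE 0.04). Zfp451, a SUMO ligase, rose by 0.45 (SE 0.06). Zfp91, a ubiquitin ligase of non-canonical NF-kB signalling, had a log2 fold change of 0.14 (SE 0.05) that turned to -0.13 under library totals.

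Among 8 members listed by hand as linked to immune cells, 4 rose and 2 fell with LPS (3 and 3 under library totals). For Zfp131, Zfp263 and Zfp281, which rose, no immune role is given here. Zfp64, also on this list, was the remaining member that rose. Zfp131, a BTB domain factor, was at 19.9, 20.7 and 21.6 CPM in control, 90.2, 91.6 and 91 CPM with LPS and 113, 118 and 118 CPM with LPS plus BHB, rising in each step without overlap (log2 fold change with LPS 2.13, SE 0.05). Zfp263 was at 85.5, 84.1 and 88.5 CPM in control, 355, 359 and 359 CPM with LPS and 466, 475 and 445 CPM with LPS plus BHB, again with all groups apart (2.06, SE 0.04). Zfp281, a regulator of pluripotency genes, rose by 0.66 (SE 0.05). Zfp318, needed for IgD on B cells, fell by 0.57 on the log2 scale (SE 0.06), and Zfp30, mapped as a regulator of neutrophil recruitment in mouse airways, fell by 0.83 (SE 0.13). Zfp341, a transcription factor of the Stat3 gene, was at 4.5 ± 0.286 CPM in control and 4.11 ± 0.805 CPM with LPS and was not called, nor was Zfp335.

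Of 14 tested members with chromatin or transcription roles, 6 rose and 6 fell with LPS. The falls included Zfp217, Zfp219, a partner of Sox9 (from 59.3 ± 2.64 to 14.1 ± 0.633 CPM, log2 fold change -2.07), Zfp652, a partner of the corepressor Cbfa2t3 (-1.75, SE 0.08), and Zfp516, a factor of brown fat (-0.80, SE 0.05). The rises included Zfp143, which binds promoters and loop anchors (0.78, SE 0.07), and Zfp746 (PARIS), a repressor degraded through parkin (0.54, SE 0.07). Of 4 tested members known for imprints or retroelements, Zfp568, a repressor of a placental Igf2 transcript, rose from 10.1 ± 0.995 to 44.1 ± 2.78 CPM (2.12, SE 0.08) and Zfp445, which maintains imprints, rose by 0.31 (SE 0.05). Zfp932 fell by 1.19 (SE 0.17), with 48.3% of its 31-base words also found in other genes, and Zfp809, which silences murine leukaemia virus, was not called (13 ± 0.486 and 12.6 ± 1.32 CPM).

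Per kilobase of exon, the highest mean over all libraries was that of Zfp263, with group means of 24.5 CPM per kb (control), 102 (LPS) and 132 (LPS plus BHB). Zfp598 followed with 14.6, 77.9 and 81.2 CPM per kb. The next were Zfp207, Zfp106, Zfp703, Zfp330, Zfp622 and Zfp740, with means of 35.9, 33.1, 31.2, 28.7, 26.8 and 25.3 CPM per kb. In control alone Zfp710 was highest, at 39.4 CPM per kb, against 3.51 with LPS and 6.64 with LPS plus BHB. It was followed there by Zfp207 (29.9), Zfp106 (25) and Zfp263 (24.5). Zfp330, a nucleolar protein, was at 23.1, 27.4 and 26.2 CPM in control and 75.1, 69.7 and 67.7 CPM with LPS, with no overlap (log2 fold change 1.47, SE 0.07). Zfp740 was not called with LPS (0.05, or -0.22 under library totals).

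Members with and without a KRAB box differed in the balance of their calls. This split was examined after values were seen and has no test. With LPS, 30 of 109 KRAB members rose (27.5%) and 57 fell (52.3%), with a median log2 fold change of -0.33. Of 102 members without the box, 58 rose (56.9%) and 28 fell (27.5%), with a median of 0.30. Under library totals these counts were 21 and 70 for KRAB members and 42 and 38 for the others, and against control replicate 1 alone, with the spread from the treated libraries only, they were 24 and 46, and 53 and 27.

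Level moved with this split. Of the KRAB members, 61 had a mean under 10 CPM, against 16 of those without the box. Among all tested genes under 10 CPM 20.9% rose and 47.2% fell. Those genes include ones under 1000 summed counts, which no member is, so their shares are not matched for depth. In the range under 10 CPM 8 KRAB members rose and 40 fell (65.6%), and 4 and 9 (56.2%) of the others did. Between 10 and 50 CPM, 18 KRAB members rose (40.9%) and 17 fell (38.6%), close to the 41.2% and 43.5% of all genes in the range, while 36 members without the box rose (60%) and 14 fell (23.3%). At 50 CPM or more, all 4 KRAB members rose, and 18 of 26 without the box rose and 5 fell, against 61.4% and 30.8% of all genes. The part of level in the split was not tested beyond these strata. Summed over members, KRAB members stood at 1534 ± 26.4 CPM in control and 1794 ± 29.6 CPM with LPS, although more of them fell than rose, and under library totals the order was reversed, at 0.176% in control and 0.170% with LPS, as a share of counts.

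**Figure D3:**
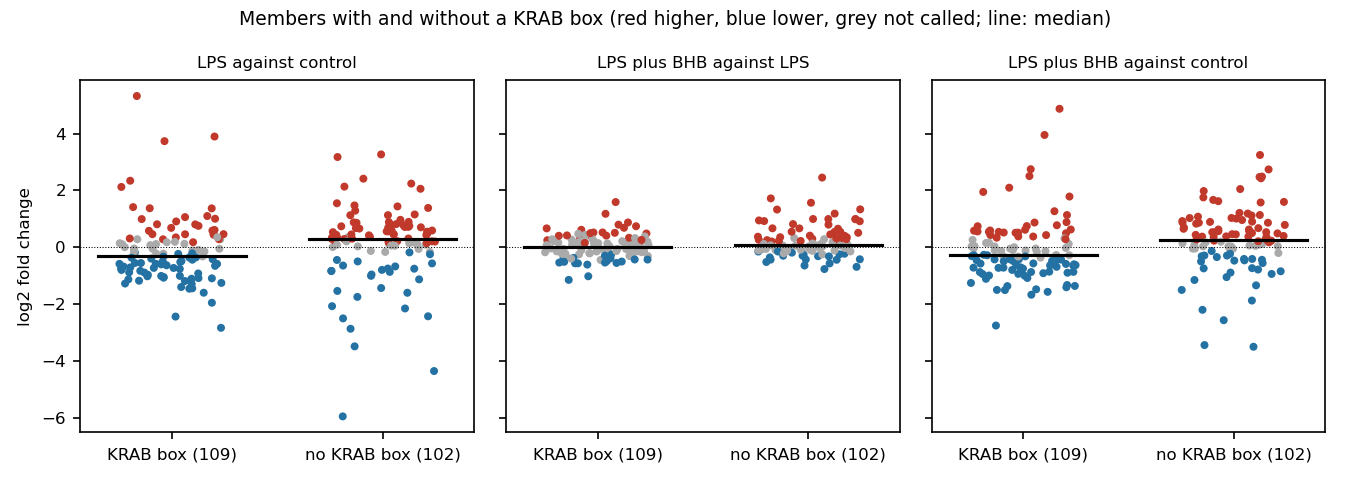
Log2 fold change (vertical axis) of the 109 members with a KRAB box and the 102 without (horizontal axis) in the 3 comparisons, one point per gene, red for higher, blue for lower and grey for not called, with the median as a black line. The medians for LPS against control are -0.33 and 0.30, and those for LPS plus BHB against LPS lie near 0 in both classes.

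The machinery through which KRAB proteins silence genes was followed in a list of 29 genes, of which 28 were tested. With LPS, 9 rose (32.1%) and 12 fell (42.9%), near the 38.4% and 41.4% of all genes, with a median log2 fold change of -0.22. Under library totals 5 were higher and 17 lower. Dnmt1, the maintenance DNA methyltransferase, was at 85.3, 82 and 87.6 CPM in control, 11.2, 9.86 and 12.2 CPM with LPS and 16.5, 17.1 and 21.5 CPM with LPS plus BHB. Dnmt3a, a de novo DNA methyltransferase, was at 365, 366 and 403 CPM in control, 75.8, 76.1 and 89.8 CPM with LPS and 68.3, 69.6 and 69.9 CPM with LPS plus BHB. Both were low in every treated library, with log2 fold changes for LPS against control of -2.94 (SE 0.09) and -2.23 (SE 0.06). Setdb1, the histone H3 lysine 9 methyltransferase recruited by Trim28, fell from 95.5 ± 2.85 to 45.5 ± 2.42 CPM (-1.07, SE 0.06), and Chd3, a NuRD remodeller, fell by 0.91 (SE 0.05). Trim28 itself, named here after its values were seen, rose from 137 ± 3.44 to 171 ± 2.14 CPM (0.32, SE 0.04). The histone demethylase Kdm1a (0.59, SE 0.05) and Morc2a, a partner of the HUSH complex (0.63, SE 0.06), also rose.

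**Figure D4:**
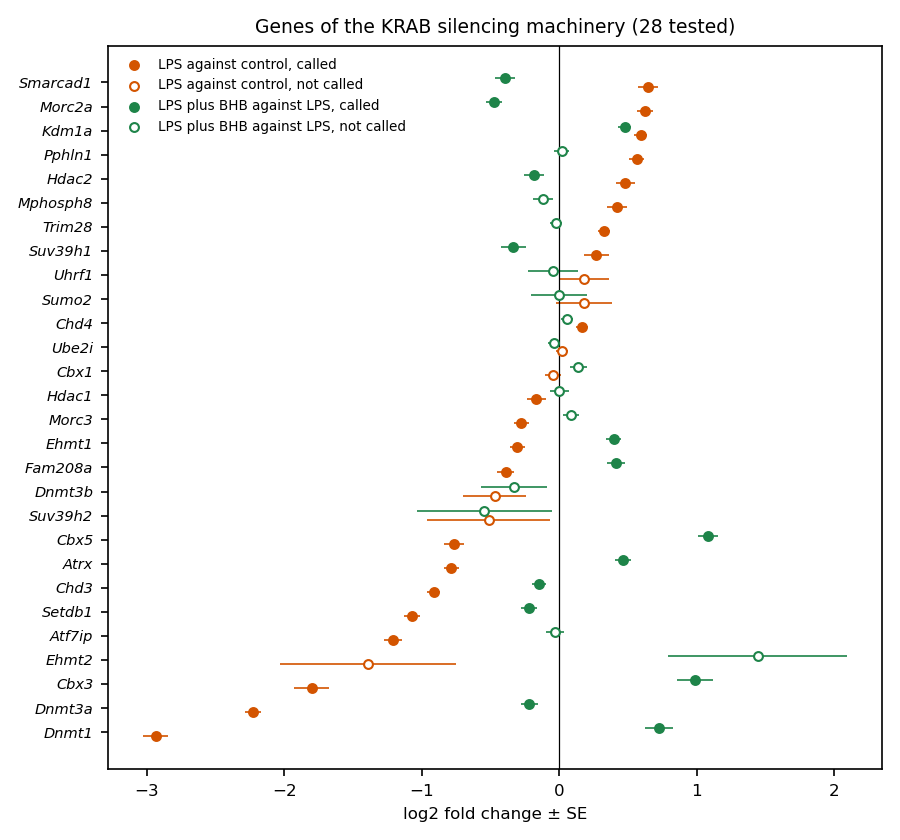
Log2 fold change with its SE (horizontal axis) of the 28 tested genes of the KRAB silencing machinery (vertical axis, ordered by LPS against control), orange for LPS against control and green for LPS plus BHB against LPS, filled where called. Dnmt1 and Dnmt3a fell most with LPS, at -2.94 and -2.23, and Cbx5 rose by 1.08 with LPS plus BHB against LPS.

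Neighbouring members were compared in runs of at least 4 with gaps of at most 100 kb, of which there were 11. The longest, chr7:29768552-30169750 (GRCm38), held 12 members, 8 of them with a KRAB box. With LPS 9 of them rose, 1 fell and 2 were not called (7 higher and 3 lower under library totals, 8 and 1 without control replicates 2 and 3). Zfp420 (3.17), Zfp568 (2.12), Zfp146 (1.55), Zfp382 (1.37) and Zfp566 (1.10) rose most, while Zfp30 in the same run fell (-0.83). Zfp382 was at 22.1, 21.1 and 22 CPM in control and 55.7, 55.2 and 57.3 CPM with LPS, and Zfp146 at 21.1, 18.7 and 20.2 CPM and 58.9, 60.1 and 56.2 CPM, both without overlap.

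The 7 KRAB members of the run chr17:32765496-33110705 were mixed, with 2 higher, 3 lower and 2 not called with LPS (2 and 4 under library totals). They included Zfp811 with its rise of 5.32 and its neighbours Zfp870, Zfp472 and Zfp563, which fell by 0.97, 1.05 and 1.29 on the log2 scale. Of the 4 other runs made up only of KRAB members, the called ones all fell in 3, with 2 of 6 at chr13:67312998-67553830, 3 of 5 at chr17:21383748-21588699 and 3 of 5 at chr9:20345136-20605409. In the other, chr8:69610857-69791178, Zfp868 (0.46) and Zfp869 (0.75) rose and 2 fell. Over all genes 38.4% were higher and 41.4% lower. Many members of these runs had a mean under 10 CPM, and of all KRAB members in that range 13.1% were higher and 65.6% lower. Related genes in a run can share sequence: the median member shared 2.59% of its 31-base words with other genes, and 29 members shared 20% or more. Among the 187 members under 20%, 81 rose and 72 fell with LPS, and among the 29 others 9 rose and 14 fell.

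**Figure D5:**
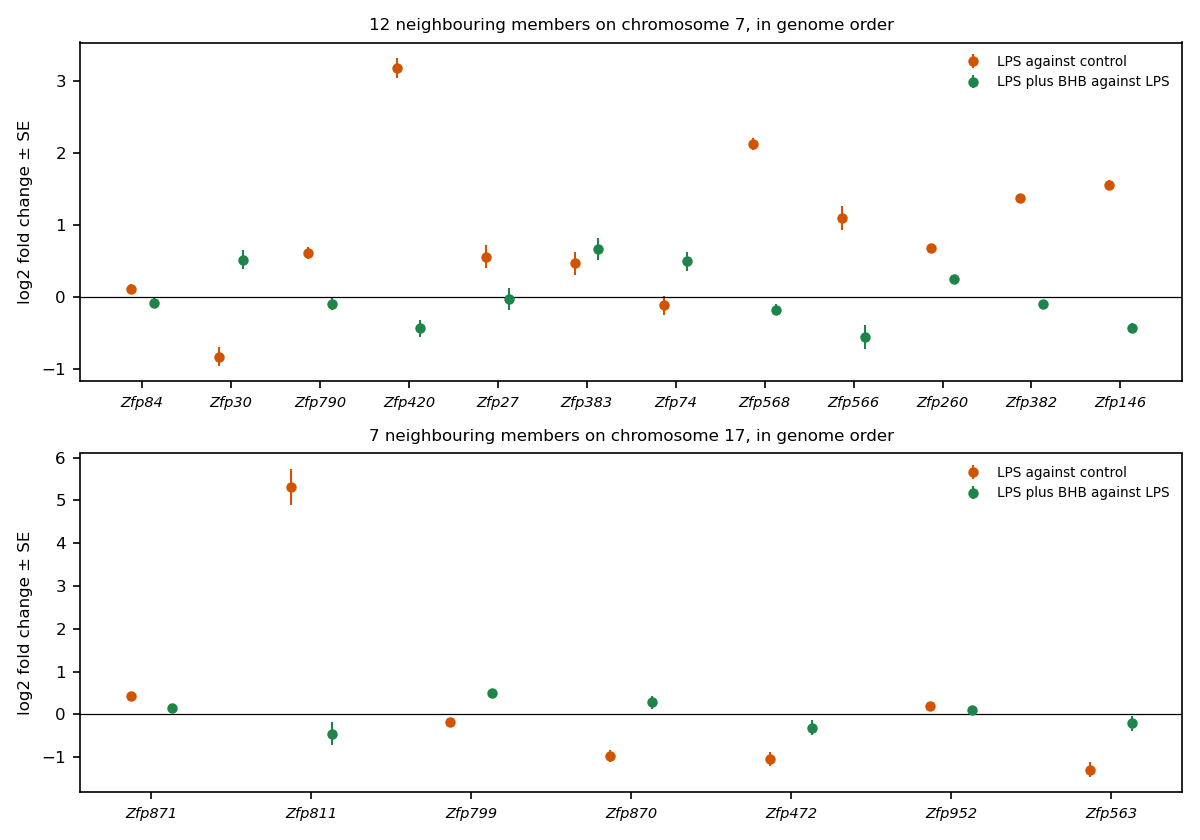
Log2 fold change with its SE (vertical axis) of the 12 neighbouring members on chromosome 7 and the 7 on chromosome 17, in genome order (horizontal axis), orange for LPS against control and green for LPS plus BHB against LPS. On chromosome 7, 9 of 12 rose with LPS, and on chromosome 17 Zfp811 stands at 5.32 beside neighbours between -1.29 and 0.44.

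The next comparison set LPS plus BHB against LPS and asked what BHB changed in cells that also had LPS. Zfp395, Zfp217, Zfp69, Zfp503, Zfp462 and Zfp609 had the largest rises, and Zfp945, Zfp709, Zfp202, Zfp207, Zfp672 and Zfp697 the largest falls. In all, 63 members rose (29%), 40 fell (18.4%) and 114 were not called by edgeR's quasi-likelihood test at an adjusted p under 0.05. Over all genes tested 50.7% were called, 26.4% higher and 24.4% lower, and among those with at least 1000 counts 31.7% and 31.1%. Groups did not overlap in 124 members (57.1%), against 56.7% of all genes. The changes were mostly small: 8 members rose (3.69%) and 2 fell (0.922%) by at least 2-fold, against 7.89% and 3.36% of all genes and 6.67% and 2.27% of those with at least 1000 counts, and the median was 0.05, against 0.0064 over all genes. Under library totals 53 members were higher and 54 lower. This comparison shares its LPS libraries with the preceding one, so values are set side by side and no relation between them is given as a result.

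Zfp395, at 1.32, 1.01 and 1.66 CPM with LPS against 6.31, 7.05 and 8.54 CPM with LPS plus BHB, had a log2 fold change of 2.45 (SE 0.15, adjusted p = 3.73e-11). Zfp217 rose by 1.72 (SE 0.08), and LPS plus BHB replicate 3 was its highest treated library, at 65.8 CPM. Zfp69, a KRAB gene mapped at a mouse diabetes locus, was at 2.04, 1.85 and 1.77 CPM with LPS and 4.48, 4.76 and 7.87 CPM with LPS plus BHB, while control lay at 5.41, 4.1 and 4.28 CPM. Its LPS plus BHB libraries overlapped control and lay above LPS (1.59, SE 0.22).

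Zfp503 and Zfp703, paralogs that act as corepressors of the NET family, rose in this comparison and were not called in the first. Zfp503 was at 9.6, 8 and 7.53 CPM in control, 7.19, 9.16 and 9.79 CPM with LPS and 26.7, 26.2 and 24.4 CPM with LPS plus BHB (log2 fold change 1.57, SE 0.11). Zfp703 was at 73.1, 75.5 and 74.5 CPM in control, 80.3, 78.6 and 78.4 CPM with LPS and 150, 154 and 166 CPM with LPS plus BHB (0.99, SE 0.05). In both genes the LPS plus BHB libraries lay above all 6 others. For LPS against control, Zfp503 had a log2 fold change of 0.06 and Zfp703 one of 0.09, which turned to -0.19 under library totals.

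Zfp609 rose by a further 1.33 (SE 0.06), and Zfp462, a protein of heterochromatin with 34 finger motifs, by 1.33 (SE 0.16), from 20.1, 21.1 and 19.2 CPM with LPS to 44.8, 48.6 and 58.9 CPM with LPS plus BHB. Zfp219 was at 14.2, 14.7 and 13.4 CPM with LPS and 31.2, 30 and 34.6 CPM with LPS plus BHB (1.18, SE 0.07). Zfp106 rose by 0.66 (SE 0.04), Zfp516 by 0.66 (SE 0.05), Zfp687 by 0.55 (SE 0.09) and Zfp451 by 0.51 (SE 0.06). Beside the 31.7% higher and 31.1% lower among all genes with at least 1000 counts, of the chromatin and transcription list 9 of 14 rose and the other 5 were not called (9 higher and 3 lower under library totals), and of the immune list 5 of 8 rose and the other 3 were not called. Of the RNA and translation list 1 rose, 2 fell and 5 were not called.

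Zfp945 fell by 1.15 on the log2 scale (SE 0.06, adjusted p = 7.98e-12). Zfp709, a KRAB member, was at 5.77, 5.42 and 8.56 CPM with LPS and 2.68, 3.37 and 3.67 CPM with LPS plus BHB, without overlap (-1.02, SE 0.19). Zfp207 fell by 0.77 (SE 0.04), to just below the control libraries. Zfp202, whose human counterpart represses lipid genes, fell by 0.80 (SE 0.16), Zfp672 by 0.69 (SE 0.10) and Zfp697 by 0.64 (SE 0.14). Zfp622 fell by 0.30 (SE 0.06) and Zfp330 by 0.57 (SE 0.07). Zfp598 (0.06, SE 0.04), Zfp827 (-0.02, SE 0.11) and Zfp811 (-0.45, SE 0.27, adjusted p = 0.209) were not called, although Zfp811 was called in the fit without control replicates 2 and 3 (adjusted p = 0.00912). Zfp704 was called at 0.23 (adjusted p = 0.0345), which was no longer called on leaving out any of LPS replicates 1, 2 and 3 or LPS plus BHB replicates 2 and 3 (adjusted p from 0.052 to 0.1955).

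For the KRAB split, the difference between the comparisons was not tested. Of KRAB members 23 rose (21.1%), 19 fell (17.4%) and 67 were not called. Of those without the box 40 rose (39.2%), 20 fell (19.6%) and 42 were not called. Among all genes with at least 1000 counts 31.7% rose and 31.1% fell. Under 10 CPM, 16.4% of KRAB members rose and 14.8% fell, against 17.7% and 11.4% of all genes there. The others in that range had 37.5% and 6.25%. Between 10 and 50 CPM the shares were 25% and 18.2% with the box and 35% and 23.3% without. All genes there had 30.5% and 30.6%. The part of level was not tested. Summed CPM of KRAB members was 1794 ± 29.6 with LPS and 1734 ± 32.1 with LPS plus BHB, with overlap of their ranges nowhere, and that of members without the box was 4402 ± 38.7 and 5015 ± 69.6. In the silencing list 7 rose and 7 fell (25% each), against 26.4% and 24.4% of all genes. Cbx5, which encodes the heterochromatin protein HP1 alpha, was at 42.5, 42.4 and 44.4 CPM in control, 27, 24 and 24.9 CPM with LPS and 49.2, 52.3 and 59.4 CPM with LPS plus BHB (1.08, SE 0.07). Dnmt1 rose by 0.73 (SE 0.10) and Atrx, a chromatin remodeller, by 0.46 (SE 0.06), while Morc2a fell by 0.48 (SE 0.06) and Dnmt3a by 0.22 (SE 0.06). In the run of 12 on chromosome 7, 4 rose, 3 fell and 5 were not called.

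The comparison of LPS plus BHB with control shares libraries with both others and gives the net difference. Of the members 90 rose (41.5%), 84 fell (38.7%) and 43 were not called by edgeR's quasi-likelihood test, against 78.4% called, 38% higher and 40.4% lower, over all genes and 45.2% and 40.4% of those with at least 1000 counts. At least 2-fold changes were called in 30 members upward (13.8%) and 24 downward (11.1%), against 18.2% and 23.4% of all genes and 18.3% and 18.4% of those with at least 1000 counts. Groups did not overlap in 181 members (83.4%), against 80.2% of all genes. Under library totals 60 were higher and 119 lower, and without control replicates 2 and 3, 83 and 71.

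The largest rises were those of Zfp811 (4.87, SE 0.43, and 5.82 without control replicates 2 and 3), Zfp9 (3.95, SE 0.14), Zfp827 (3.25, SE 0.14), Zfp945 (2.75, SE 0.07), Zfp420 (2.74, SE 0.14) and Zfp719 (2.50, SE 0.11). Zfp719 was at 3.66, 4.58 and 3.97 CPM in control, 18, 22.4 and 21.6 CPM with LPS and 22, 24.6 and 22.8 CPM with LPS plus BHB, both treated groups above control. The largest falls were those of Zfp395 (-3.50, SE 0.10), Zfp608 (-3.44, SE 0.13), Zfp90 (-2.76, SE 0.11), Zfp710 (-2.57, SE 0.05), Zfp704 (-2.20, SE 0.08) and Zfp467 (-1.88, SE 0.13). For Zfp811 without control replicate 2 the value was 6.40.

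Some members with a call in the first comparison had none here. Zfp207 stood at a log2 fold change of -0.06 (SE 0.04), Zfp69 at 0.31 (SE 0.20) and Zfp687 at 0.05 (SE 0.09), which turned to -0.28 under library totals. A missing call does not show that a level was back at control. Summed over members, the level was 5292 ± 49.4 CPM in control, 6295 ± 33.9 CPM with LPS and 6843 ± 102 CPM with LPS plus BHB (SD, n = 3), without overlap. As a share of library totals the order of control and LPS turned, at 0.608%, 0.598% and 0.627%.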

How the data were processed

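RNA was measured by sequencing in 9 libraries. Per the submitters' processing notes reads were aligned with HISAT2 to mm10. The aligner's version, the counting tool, its annotation and how strand was handled were not given in the sources used here. The deposited table gives, for each gene symbol, whole-number counts in 9 columns, 1 for each library.

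Genes passing filterByExpr (minimum count 10) were kept, which left 14026 with 99.956% of counts. After TMM scaling, a robust quasi-likelihood model with group as the only term was fitted to the 9 libraries (R 4.3.3, edgeR 4.0.16). It left 6 residual degrees of freedom, and the biological coefficient of variation was 6.72%. Two-sided p-values were adjusted by Benjamini-Hochberg over all genes, with a threshold of 0.05. SE is the absolute log2 fold change over the square root of the F statistic, and is approximate. The test was also run on simulated data with few genes changed, which cannot show how the scaling behaves where most genes change. Replicates differed by more than sampling noise (chi-square per degree of freedom 3.10 to 10.4).

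The members and lists were chosen with earlier results of these data known. The members named are the 6 largest rises and falls per comparison among called members with a mean of at least 2 CPM, the 8 highest per kilobase, the role lists and those next to the limit of 1000 counts, and, outside the members, the 4 smallest p of the silencing list per comparison and genes that LPS raises. Some members of the role lists, among them Zfp384, Zfp592 and Zfp830, are not given with values. Some genes outside these rules were named after their values were seen. Positions, overlaps, shared 31-base words and coding sequences come from the GENCODE annotation of GRCm38, and promoters from RefSeq (GRCm38.p6). Alternatives were other scalings, no filter, DESeq2 1.42.0, a replicate block, fewer libraries, glmTreat and other limits on counts and shared words.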

Additional observations from a re-analysis of the deposited data

How the results depend on the processing

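Under glmTreat against a fold of 1.5, 46 members were higher and 50 lower for LPS against control. Of all 14026 genes tested, 3369 were higher and 4164 lower. For LPS plus BHB against LPS, 15 members were higher and 3 lower, and 1205 and 571 of all genes. For LPS plus BHB against control, 44 members were higher and 40 lower, and 3265 and 3727 of all genes. With a limit of 3000 summed counts, 36 members were lower with LPS and 37 with LPS plus BHB against control. The members' median for LPS against control was -0.19 under library totals, -0.12 with a limit of 300 counts and 0.29 with 3000. Leaving out 1 library at a time gave 0.076 to 0.13, the highest without LPS replicate 3. For LPS plus BHB against control it was -0.30, -0.077 and 0.28. Summed CPM of the members, under scalings chosen after seeing the data, was 5221 in control and 6357 with LPS by DESeq2 size factors, and 6080, 5979 and 6272 in control, LPS and LPS plus BHB by library totals. Library totals alone changed the sign of some named genes that were called under either scaling, not always under both. For LPS against control these were Zfp106 (-0.075), Zfp703 (-0.19), Zfp740 (-0.22) and Zfp91 (-0.13). For LPS plus BHB against control they were Cbx5 (-0.00946), Morc2a (-0.18), Zfp148 (-0.31), Zfp326 (-0.10) and Zfp335 (-0.21). There Zfp638 (-0.058), Zfp644 (-0.30), Zfp687 (-0.28), Zfp740 (-0.054) and Zfp91 (-0.11) also changed sign. Among all called members, the call itself turned to the opposite call in 1 and 2 members in these comparisons. By library totals KRAB members in LPS plus BHB against control were 20 higher and 72 lower, from 31 and 54, and those without the box 38 and 44, from 56 and 28, and the silencing list 2 and 18, from 9 and 11. DESeq2 size factors kept 173 of 177, 103 of 103 and 172 of 174 called members in the 3 comparisons, in the order given. The labels do not say whether replicate numbers pair the libraries. Correlations of deviations ran from -0.0166 to 0.0392 for same-numbered libraries and from -0.0379 to 0.0430 for differently numbered ones. Between LPS and LPS plus BHB they were 0.0138 to 0.0392 and -0.0379 to 0.00767. With a replicate block 91 members were higher and 83 lower with LPS. These counts were 65 and 42 with LPS plus BHB against LPS, and 90 and 83 against control. Among others, calls of Zfp148, Zfp202, Zfp30, Zfp326, Zfp516, Zfp638 and Zfp709 in at least 1 comparison, and of Chd3 for LPS plus BHB against LPS (adjusted p = 0.0926 by edgeR without LPS replicate 3), were lost when 1 library was left out. Depth limits members under a few CPM, above all Zfp811 in control.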

Other observations

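Other zinc finger genes were counted in the same fit. Of 129 numbered Zfp genes under 1000 summed counts, 82 were tested, and with LPS 6 rose and 51 fell (2 and 56 under library totals), with a median log2 fold change of -0.91. In the range under 10 CPM, 20.9% of all genes rose and 47.2% fell. Over all tested genes 38.4% rose and 41.4% fell with LPS. Of 36 tested Zbtb genes, whose proteins join a BTB domain to zinc fingers, 23 rose and 12 fell with LPS (17 and 14 under library totals). Of 19 tested Zscan and Zkscan genes, whose proteins carry a SCAN domain, 5 rose and 8 fell. Of 19 tested Zc3h genes, whose CCCH fingers mostly bind RNA, 11 rose and 7 fell. For LPS plus BHB against LPS the counts were 11 and 5 for Zbtb, 5 and 4 for Zscan and Zkscan, and 6 and 3 for Zc3h genes, against 26.4% and 24.4% of all tested genes. No test between these families was made.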
